A study of Mus musculus with 20 samples.

Results

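Cortical neurons that lack FMRP, the fragile X mental retardation protein, were taken through the FMRP immunoprecipitation in the same way as wild-type neurons, and the RNA that came down without the target protein was compared with the total RNA of the same cultures. The comparison rested on 10 of the 20 arrays of the study: 5 of precipitated RNA (CLIP, crosslinking and immunoprecipitation) and 5 of total RNA (Input) from Fmr1 knockout cultures, numbered 1 to 5. The 5 CLIP and 5 Input arrays of wild-type cultures entered only where values are set side by side. All neurons came from cortices of embryonic day 17 mice of a C57Bl6 background, were kept 8 days in vitro and were irradiated at 254 nm, which links RNA to the proteins that touch it. The knockout allele and the antibody are not given in the sources used here, nor is the number of embryos behind a culture. All 24551 features of the deposited table were examined, a feature being a group of array probes that mostly stands for 1 gene.

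FMRP, the product of Fmr1, binds many mRNAs of neurons and holds back their translation, and its loss causes fragile X syndrome. Antibody and beads also retain RNA that the target protein does not hold. A precipitate from knockout cells, in which that protein cannot be made, is the usual measure of such background.

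Values are log2 intensities, and a difference is CLIP minus Input within a culture on that scale, so that 1 is a doubling. Since RNA was amplified before hybridisation and arrays had like medians (5.3 to 5.44), a higher value means a larger share of the precipitate than of the total RNA, not a larger amount of RNA. Where levels are compared between cultures, fewer cells of a type and less RNA per cell cannot be told apart in such bulk samples. CLIP and Input of 1 number came from the same culture. Whole-array correlations over features were 0.976 to 0.994 among knockout CLIP arrays, 0.957 to 0.987 among knockout Input arrays and 0.914 to 0.972 between these groups, and the differences of any pair of cultures correlated at 0.496 to 0.76 (a description, since features are not independent replicates). The median difference over all features was -0.13, and it was -0.20 for the 10335 features with a mean level under 5 and 0.03 for the 14216 others.

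Fmr1 itself was low in every knockout array. Its levels in knockout Input were 3.98, 4.03, 4.06, 4.34 and 4.28 in cultures 1 to 5, and in knockout CLIP 3.92, 3.81, 3.93, 4.03 and 3.93. Wild-type Input stood at 5.69 ± 0.20 (SD, n = 5) and wild-type CLIP at 6.49 ± 0.23, so the levels went with the labels. The difference between knockout CLIP and Input of Fmr1 was -0.22 (SE 0.11, limma adjusted p = 0.148). The paralogues Fxr1 and Fxr2, RNA-binding proteins of the same family, were present: Fxr1 was 0.64 higher in CLIP (SE 0.19, adjusted p = 0.024) and Fxr2 0.42 higher (SE 0.13, adjusted p = 0.0283). Both calls depended on single cultures: Fxr1 reached an adjusted p of 0.0747, 0.0752 and 0.0594 without culture 2, 4 or 5, and Fxr2 of 0.0852, 0.0722 and 0.0886 without culture 2, 3 or 4. With all 20 arrays forced to 1 distribution (quantile normalization) the adjusted p was 0.0555 for Fxr1 and 0.107 for Fxr2.

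The precipitate without FMRP differed from total RNA in both directions. In limma, with the culture as a block and p-values adjusted over all features (Benjamini-Hochberg, threshold 0.05), 4073 features were higher in CLIP (16.6%) and 4095 were lower (16.7%). At least a 2-fold difference was passed by 1042 features upward (4.24%) and 665 downward (2.71%). When the features of a gene were averaged, 3543 of 21244 genes were higher (16.7%) and 3413 lower (16.1%), and 774 (3.64%) and 401 (1.89%) by at least 2-fold. The balance of directions moved with the setting: 3178 were higher and 2321 lower without culture 5, 3879 and 2454 where only features of mean level at least 5 were tested, and 4283 and 5220 in a fit to all 20 arrays. All 5 cultures pointed upward for 4276 features (17.4%) and downward for 6244 (25.4%). The 5 CLIP values lay wholly above the 5 Input values for 2533 features (10.3%) and wholly below them for 2899 (11.8%).

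The 15 named features that rose furthest include 4 noncoding RNAs. Meg3, a long noncoding RNA of an imprinted cluster, had Input levels of 8.29, 7.74, 8.33, 7.21 and 7.28 in cultures 1 to 5 and CLIP levels of 11.22, 10.66, 10.79, 10.20 and 11.55. Every CLIP value lay above every Input value, and the difference was 3.12 (SE 0.22, 8.67-fold, limma adjusted p = 2.25e-05). Snhg1, a host of small nucleolar RNAs, rose from 3.13, 4.17, 3.86, 4.23 and 4.32 to 6.94, 7.01, 6.91, 6.84 and 7.24, a difference of 3.05 (SE 0.16, adjusted p = 7.69e-06) with no overlap. For Gas5, another such host, Input levels were 6.36, 3.40, 5.33, 3.15 and 3.77 and CLIP levels 8.43, 8.25, 7.08, 5.96 and 8.67. Here the groups overlapped, since Input was high in culture 1 and CLIP low in culture 4, but every culture rose, by 1.75 to 4.90 (mean 3.27, SE 0.43, adjusted p = 0.000311). The small nucleolar RNA AF357355 rose by 2.57 (SE 0.43, adjusted p = 0.00113).

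The others are mostly protein-coding. The largest rise, 3.78 (SE 0.16, 13.7-fold, adjusted p = 4.36e-06), was in a feature of Cspp1, a centrosome and spindle pole protein, whose Input levels of 5.14, 4.32, 4.1, 3.59 and 4.86 stood against CLIP levels of 8.23, 8.54, 7.81, 7.36 and 8.92. Rbm25, a splicing regulator with an arginine-rich stretch, went from 7.62, 6.13, 7.40, 6.53 and 6.54 in Input to 10.09, 9.68, 9.38, 9.82 and 10.43 in CLIP (3.03, SE 0.24, adjusted p = 3.83e-05). For both of these features the groups did not overlap. Smaller rises, of 2.54 for the chromatin remodelling subunit Bptf, 2.48 and 2.45 for the chromodomain helicases Chd7 and Chd2, 2.47 for Sfrs18 (now Pnisr) and 2.38 for Mll5 (now Kmt2e), had adjusted p-values of 8.47e-05 or less. Nova1, a neuronal splicing regulator, rose by 2.53, the kainate receptor subunit Grik1 by 2.47, the actin crosslinker Flna by 2.55 and the predicted gene Gm9801 by 2.83. For 14 of these 15 features the groups did not overlap, but each was picked for its size of difference.

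**Figure D1:**
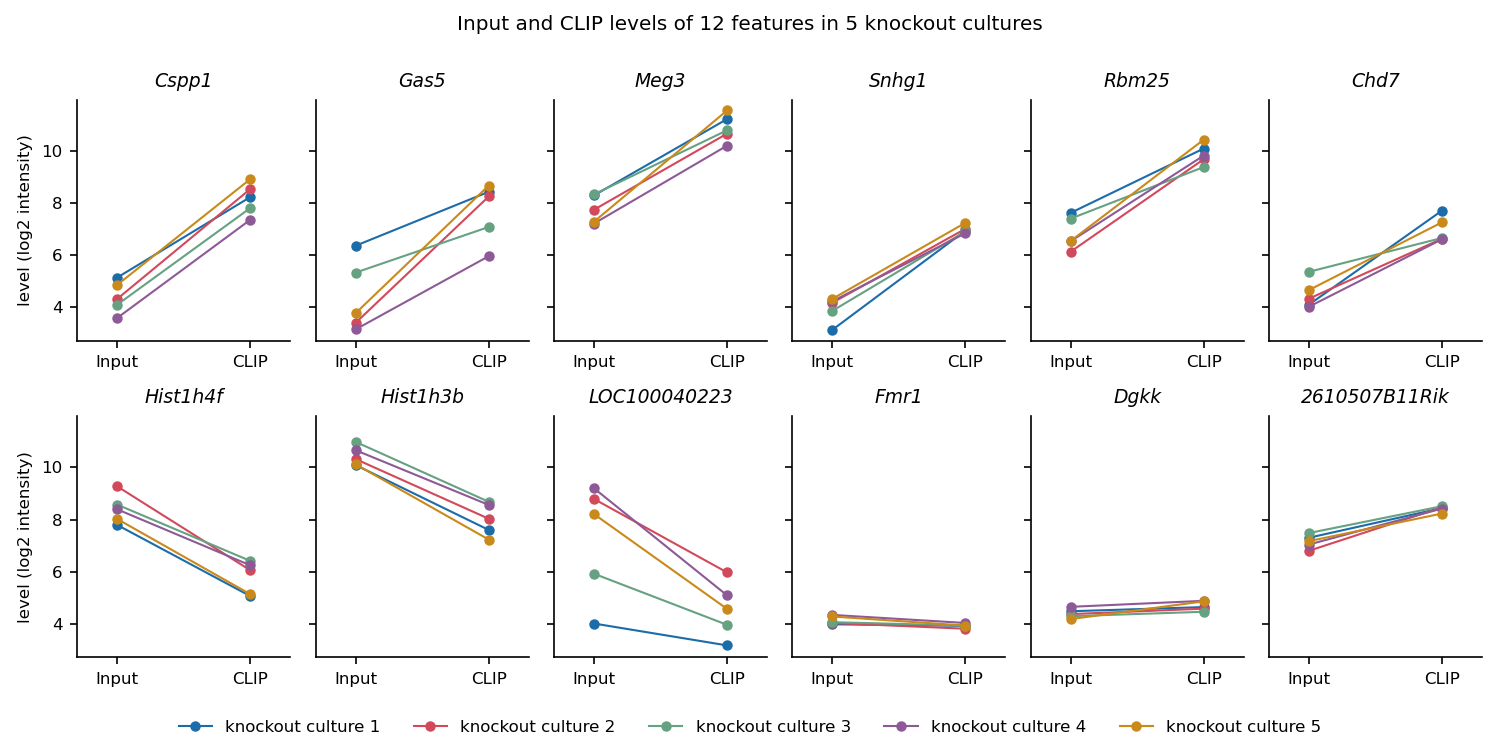
Levels (log2 intensity, vertical axis) of 12 features in Input and CLIP, with a line for each of the 5 knockout cultures. Cspp1 climbs in every culture while Hist1h4f falls in every culture, LOC100040223 starts at widely different Input levels, and Fmr1 and Dgkk stay near 4 to 5.

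Several of these genes have more than 1 feature, and the features did not move as one. Cspp1 has 14 features, of which 12 rose and 1 fell, with differences from -0.35 to 3.78. Chd7 has 30, of which 23 rose, and they ran from 0.17 to 2.48. All 4 features of Rbm25 rose, by 1.70 to 3.03, while 3 of 4 rose for Gas5 (0.29 to 3.27) and 3 of 5 for Snhg1 (-0.02 to 3.05). The Gas5 feature that did not pass (0.29, limma adjusted p = 0.0732) had by far the highest level, with means of 11.33 in Input and 11.63 in CLIP. Those that rose had Input means from 4.40 to 6.32, and the largest rise was in the lowest of them. What parts of the transcripts these features probe is not given in the files.

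At the other end, 9 of the 15 named features that fell furthest were histone genes and 6 were copies of a Y-linked testis gene family. Replication-dependent histone mRNAs are short, have no introns and end in a stem-loop instead of a poly(A) tail. Hist1h4f (now H4c6) had Input levels of 7.79, 9.27, 8.57, 8.39 and 8.02 and CLIP levels of 5.06, 6.05, 6.41, 6.24 and 5.13. The groups lay apart in all cultures, and the difference was -2.63 (SE 0.17, adjusted p = 1.35e-05). Hist1h3b (now H3c2) fell by 2.42 on the log2 scale (SE 0.13, adjusted p = 7.69e-06), from Input levels of 10.09, 10.32, 10.98, 10.66 and 10.12 to CLIP levels of 7.60, 8.03, 8.68, 8.56 and 7.23. Histone genes of 1 class are nearly alike in sequence, so their features can pick up the same RNA and are not independent. Hist2h3b, Hist2h3c1, Hist1h3c, Hist1h3d, Hist1h3e and Hist1h3i, all of the H3 class, had differences from -2.43 to -2.30, and Hist1h4c one of -2.37. Over the whole list, 54 of 60 histone genes were lower and 0 higher, with a median of -1.24 against -0.13 for all genes, and culture medians from -1.44 to -0.87.

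The Y-linked features made a special case, because the cultures did not hold the same levels to begin with. LOC100040223 (now Gm20831, of a family of spermiogenesis transcripts) had Input levels of 4.01, 8.79, 5.92, 9.20 and 8.21 and CLIP levels of 3.17, 5.97, 3.96, 5.09 and 4.57. Input was therefore high in cultures 2, 4 and 5, in between in culture 3 and near the bottom of the scale in culture 1, and CLIP was lower in each (-2.68, SE 0.38, adjusted p = 0.000449). LOC665406, LOC665746, LOC100042196, LOC100039552 and LOC100041704 had differences from -2.61 to -2.35, with the same order of cultures in Input. All 38 features described as members of the family were lower (median -1.59), but they belong to 1 family and are not independent, and their median difference was -0.34 in culture 1 against -2.72 in culture 5.

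Other sex-linked genes, chosen after these values were seen, did not follow that family. Xist, the noncoding RNA that coats the inactive X chromosome of female cells, had Input levels of 7.01, 3.49, 7.15, 3.30 and 3.43 and CLIP levels of 9.41, 3.37, 8.68, 3.30 and 3.28. It was thus high only in cultures 1 and 3, and there CLIP exceeded Input by 2.40 and 1.53. Kdm5d, a Y-linked histone demethylase, had Input levels of 5.0, 5.74, 4.5, 5.72 and 5.59 and CLIP levels of 4.90, 6.84, 5.56, 7.06 and 7.57 (1.08, SE 0.23, adjusted p = 0.00535). Eif2s3y, a Y-linked translation initiation factor, rose by 1.05 (SE 0.30, adjusted p = 0.0201), with Input levels of 3.91, 5.94, 4.57, 6.07 and 6.59 and CLIP levels of 3.46, 8.16, 5.48, 7.0 and 8.24. Both were higher in CLIP in 4 of 5 cultures (all but culture 1). The Y-linked Uty was 0.51 higher (SE 0.16, adjusted p = 0.0298), and Ddx3y differed by 0.38 (adjusted p = 0.0743). The 5 knockout cultures thus differed in sex-linked RNA, with Xist high in cultures 1 and 3 and Y-linked RNA higher in cultures 2, 4 and 5. For Eif2s3y and the testis gene family, culture 3 lay between culture 1 and the rest. The part of sex-linked RNA in other results was not tested.

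Gene lists are described by counts beside the shares over all genes given above. The lists were chosen with earlier results of these data known, so their counts are descriptions and not tests. Chromatin remodellers and histone modifiers, enzymes that slide nucleosomes or mark histones, were higher in 44 of 45 genes (97.8%) with a median of 1.17, and 30 of them by at least 2-fold, which 3.64% of all genes were. Chd3 rose by 1.99 (SE 0.13, limma adjusted p = 4.59e-06) from a mean Input level of 9.12 to 11.11. As gene means, Bptf rose by 2.22 and Chd2 by 2.45, and the only member that did not pass, Baz1a, differed by 0.02 (adjusted p = 0.92). Culture medians of the list lay between 0.93 and 1.40.

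Cytoskeletal linkers and spectrins were higher in 20 of 23 genes and lower in 0 (median 0.97), among them the plakin Dst (1.99) and the nuclear envelope linker Syne1 (1.44). The list of giant ubiquitin ligases, which also holds the deubiquitinating enzyme Usp24 (1.13), was higher in 15 of 17 genes (median 0.93). Mycbp2, a ligase that shapes axons, stood at 1.61 (SE 0.14, limma adjusted p = 1.65e-05) and Herc1 at 1.34. Giant cadherins rose in 7 of 11 (median 0.68), led by Celsr3 with 1.5.

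At the synapse, scaffold and channel genes were high and vesicle genes were mixed. Presynaptic active zone genes were higher in 20 of 22 (median 0.88): Pclo, the giant scaffold piccolo, rose by 1.89 and the scaffold Erc2 by 1.74. Postsynaptic scaffolds were higher in 29 of 32 and lower in 1 (median 0.66). Shank1, a large scaffold of excitatory synapses, rose by 1.76 (SE 0.13, limma adjusted p = 8.35e-06) and the exchange factor Kalrn by 1.67, while Homer3 fell by 0.30 (adjusted p = 0.047), a call lost in every fit that left out a culture. Ionotropic glutamate receptors were higher in 17 of 23 (median 0.84), with Grik3 at 1.35 and Grik5 at 1.41. Voltage-gated channels were higher in 33 of 41 (median 0.70), with the sodium channel Scn1a at 1.48 and the calcium channel Cacna1a at 1.22. In the receptor and channel lists 0 genes passed as lower.

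Receptors for GABA and vesicle proteins held nearer to the whole. Of 17 GABA receptor genes 6 were higher (35.3%) and 1 lower (5.88%), with a median of 0.22. They ran from the metabotropic receptor Gabbr2 at 1.44 to the glycine receptor subunit Glrb at -0.49. Of 34 synaptic vesicle and SNARE genes 7 were higher and 4 lower (median 0.12, and -0.05 with quantile normalization), a share of 20.6% and 11.8%. Cplx2, a regulator of vesicle fusion, rose by 1.57 (SE 0.17, limma adjusted p = 4.69e-05), whereas the vesicle protein Syt4 fell by 0.69 and Rab3a by 0.62. The shares of the vesicle list lie near the 16.7% and 16.1% of all genes, while the share of GABA receptor genes that were higher lies above. All genes include many of low level, whereas each of these lists has 1 gene with a mean Input level under 5. Where only the 14216 features of mean level at least 5 were tested, 3879 were higher and 2454 lower, so 16.7% is a low bar for these lists.

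The mRNAs best known as FMRP targets were high in the precipitate that held no FMRP. Of 99 classic targets, 94 were higher than Input (94.9%), 0 were lower and 45 rose by at least 2-fold, with a median of 0.91 and culture medians from 0.68 to 1.2. Mll1 (now Kmt2a) rose by 2.06 (SE 0.14, limma adjusted p = 6.12e-06) from 7.07 ± 0.44 to 9.13 ± 0.38 (SD, n = 5). The 5 that did not pass were Psd3 (0.43, adjusted p = 0.0771), Aplp1 (0.29), Hcn2 (0.15), the activity-regulated Arc (0.14, adjusted p = 0.455) and the adhesion protein Nlgn3 (-0.08). The list was made from published crosslinking of FMRP in brain, and 78 of its genes also stand in other lists described here, so it is no separate piece of evidence. Of 23 genes for Fmr1 and its partners, 16 were higher and 0 lower (median 0.42), among them Eif2c1 (now Ago1, of the microRNA machinery) at 1.24, the mRNA packaging protein Ybx1 at 0.77 and the transport protein Stau1 at 0.70.

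**Figure D2:**
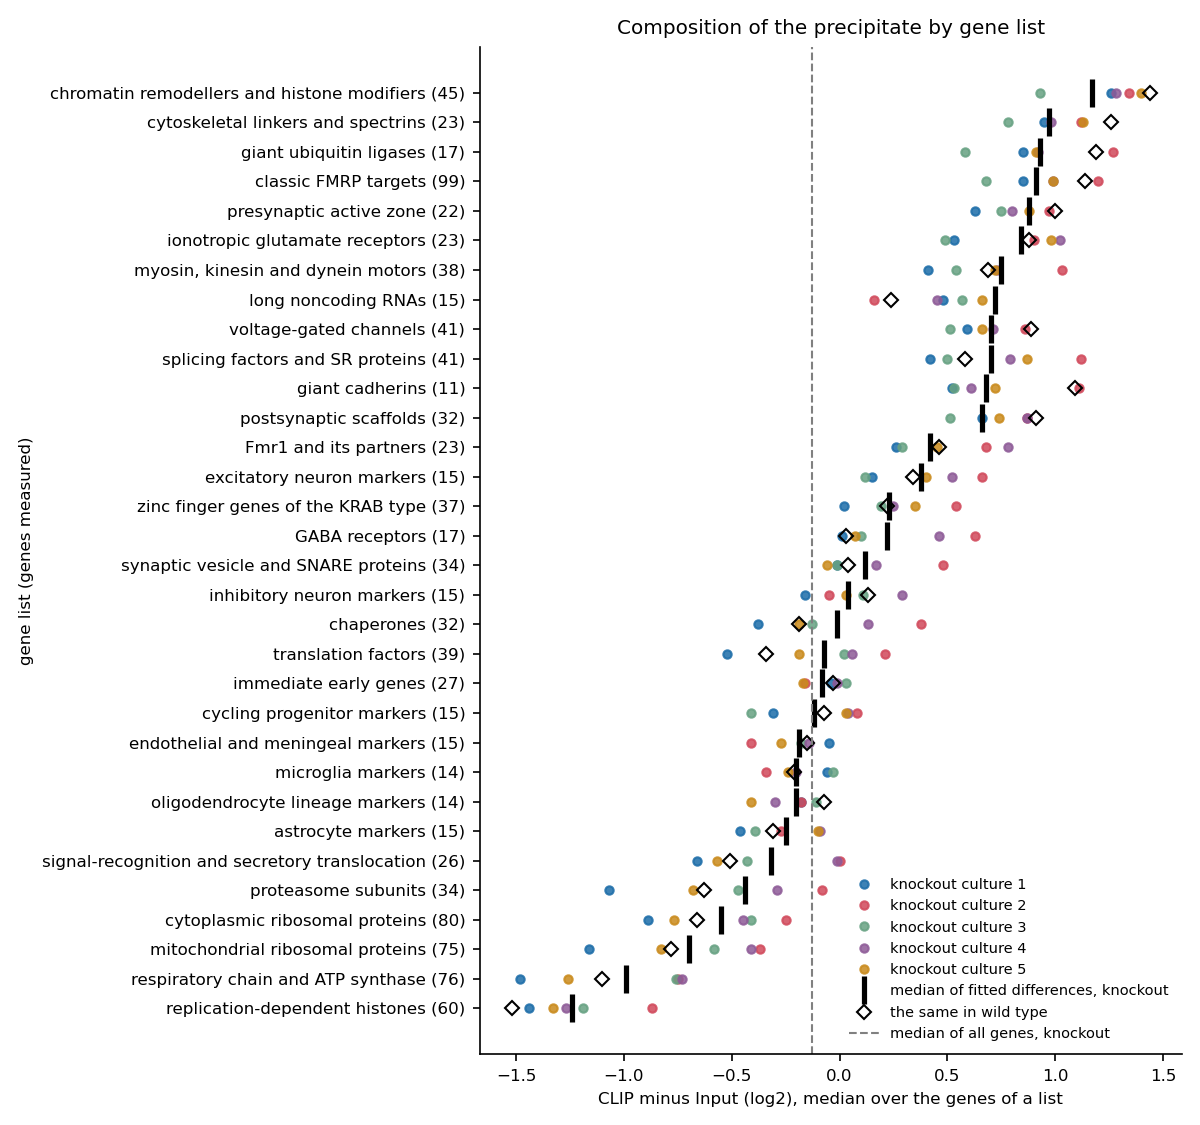
Median CLIP minus Input difference (log2, horizontal axis) of the genes of each list, with a dot for each knockout culture, a bar for the fitted differences, an open diamond for wild type and a dashed line at -0.13 for all genes. Chromatin genes stand highest at 1.17 and histones lowest at -1.24, and the diamonds keep close to the bars for most lists.

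Genes of the energy and protein machinery were low. Respiratory chain and ATP synthase genes were lower in 72 of 76 (94.7%) and higher in 0, with a median of -0.99. Atp5e, a small subunit of ATP synthase, fell from 11.69 ± 0.14 in Input to 9.72 ± 0.62 in CLIP (SD, n = 5), a difference of -1.96 (SE 0.18, limma adjusted p = 2.12e-05), and Uqcr11 of complex III fell by the same amount. Ndufa7 of complex I fell by 1.79 and Uqcrq of complex III by 1.27. The fall of the list was uneven between cultures, with medians of -1.48 and -1.26 in cultures 1 and 5 and -0.75, -0.76 and -0.73 in cultures 2, 3 and 4.

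Ribosomal protein genes followed the same direction. Of 80 cytoplasmic ones 56 were lower and 1 higher (median -0.55), and of 75 mitochondrial ones 58 were lower and 2 higher (median -0.70). Rps21 fell by 1.48 (SE 0.16, limma adjusted p = 4.25e-05) and Rpl18 by 1.16, while Rpl4 alone was higher, from 11.44 ± 0.09 to 11.90 ± 0.08 (0.46, SE 0.11, adjusted p = 0.0072). Many ribosomal protein genes have processed pseudogenes that array probes may not tell apart. Mrpl36 fell by 1.63 and Mrps28 by 1.5, while Mrps5 rose by 0.75 (SE 0.12, adjusted p = 0.000561) and Mrps9 by 0.41, a call that was lost without culture 2, 3 or 5 and under quantile normalization. With quantile normalization the median of the cytoplasmic list was -0.21.

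In the splicing list 30 of 41 genes rose and 4 fell (median 0.70): the arginine-rich factors Srsf11 and Acin1 rose by 1.60 and 1.43, whereas Snrpe and Snrpd2, proteins of the core particle, fell by 1.36 and 1.1 (limma adjusted p = 9.96e-05 and 0.000122). Of 38 motor genes 26 rose and 5 fell (median 0.75). The kinesin Kif21a rose by 2.03 (SE 0.13, adjusted p = 4.59e-06) and the myosin heavy chain Myh10 by 1.67, while the dynein light chain Dynll1 fell by 0.99 (SE 0.15, adjusted p = 0.000373) and the myosin light chain Myl12b by 0.73. For the proteasome 17 of 34 genes fell and 2 rose (median -0.44): the core subunits Psmb2 and Psmb3 fell by 1.40 and 1.61, and the lid and base subunits Psmd7 and Psmd1 rose by 0.44 and 0.67. The call of Psmd7 was lost without culture 2, 4 or 5.

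Translation factors counted 12 higher and 12 lower of 39 (median -0.07), with Eif5b, a factor that joins the ribosomal subunits, at 1.81 (SE 0.15, limma adjusted p = 1.29e-05), Eif3a at 1.45, the scaffold Eif4g3 at 1.19 and Eif3m at -0.88. Of 26 genes for signal recognition and translocation into the secretory pathway 11 fell and 2 rose (median -0.32). Sec61g and Sec61b, subunits of the channel, fell by 1.76 and 1.68, while Sec63 and the recognition particle protein Srp72 rose by 0.81 and 0.80. Among 32 chaperones 6 rose and 9 fell (median -0.01), from Hsp90b1 at 0.81 and Hsp90aa1 at 0.67 down to Cct4 at -0.85 and Hspe1, a small mitochondrial co-chaperonin, at -1.01.

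**Figure D3:**
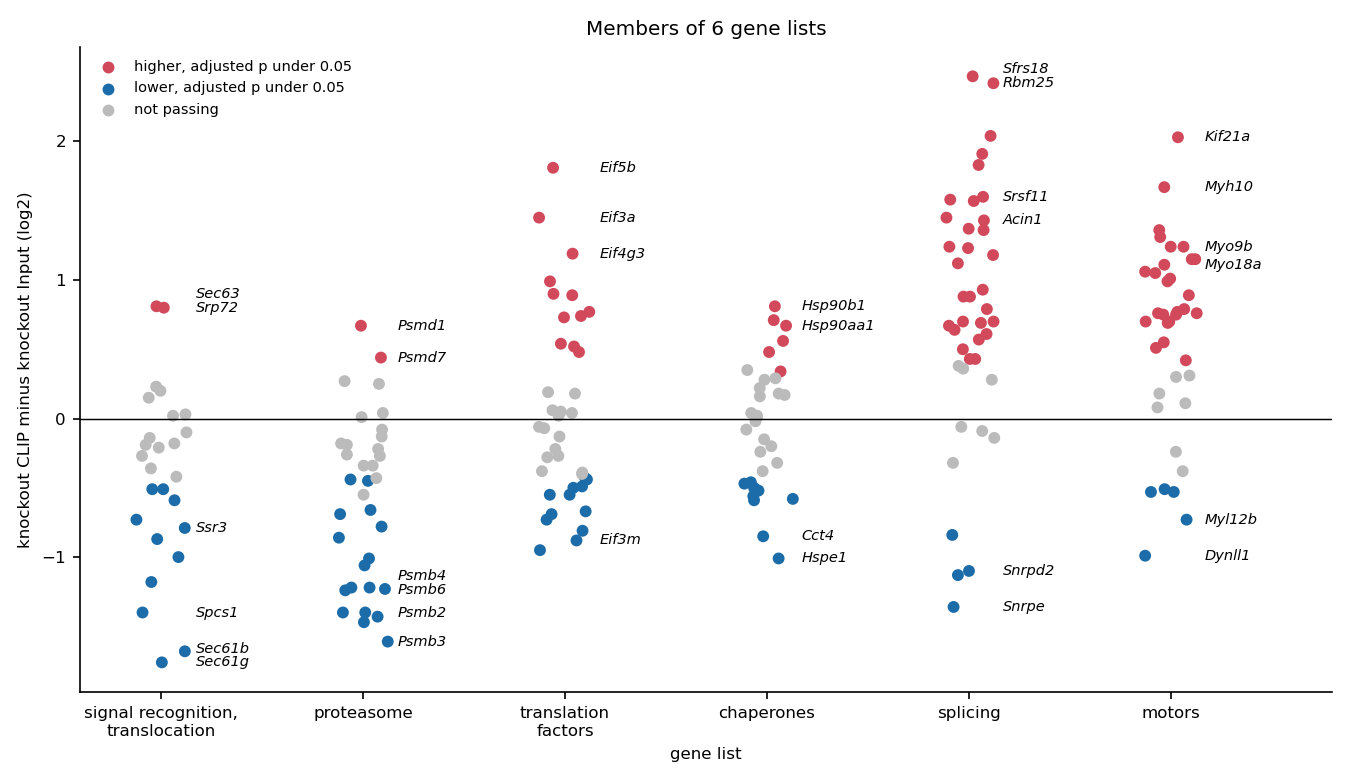
CLIP minus Input difference in knockout neurons (log2, vertical axis) of each gene of 6 lists, spread sideways for legibility, with genes that passed limma in red (higher) or blue (lower) and others in grey. Each list holds genes that passed in both directions, such as Kif21a at 2.03 and Dynll1 at -0.99 among motors or Eif5b at 1.81 and Eif3m at -0.88 among translation factors.

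Long noncoding RNAs went both ways. In the list of 15 known ones 6 were higher and 2 lower, with a median of 0.72 that fell to 0.32 without culture 1 and 0.33 without culture 4. Malat1, a nuclear RNA of speckles, rose by 1.89 (SE 0.16, limma adjusted p = 1.29e-05) and Snhg11 by 1.59, while 2610017I09Rik (now Pantr1) fell by 1.04 (adjusted p = 0.000658). Across the array, the 507 genes that RefSeq calls long noncoding had a median of -0.19, with 29 higher (5.72%) and 74 lower (14.6%). Of 8 small nuclear RNA genes 6 were lower and 1 higher, and of 115 pseudogenes 48 were lower and 3 higher. Small RNAs may be probed through copies: 404 features hold values identical to another feature in all 20 arrays, as do both features of Scarna17, a guide RNA of Cajal bodies (2.38 higher, adjusted p = 4.27e-05, chosen after its values were seen).

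The share of genes higher in the precipitate differed by gene span. The span is the length of a gene with its introns in RefSeq (GRCm38.p6), known for 19679 protein-coding genes, and is not the length of the mRNA. Of the 4010 genes under 5 kb, 2.12% were higher in CLIP and 29.1% lower, with a median of -0.26. Shares shifted step by step to 47.4% higher and 2.90% lower among the 966 genes over 200 kb, whose median was 0.33. With genes of mean level at least 5 the medians ran from -0.29 to 0.52, and Spearman's rho between span and difference was 0.452 over all these genes and 0.505 over the 11491 with that level (descriptions across genes, which are not replicates).

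The lists followed their spans only in part. Median spans were 0.489 kb for histones, 3.17 kb for cytoplasmic ribosomal proteins, 7.21 kb for the respiratory chain, 107.0 kb for classic targets and 248.0 kb for the active zone. Median differences of these lists exceeded in size those of genes of like span. Histones had -1.24 and cytoplasmic ribosomal proteins -0.55, against -0.26 for genes under 5 kb. The respiratory chain had -0.99, against -0.18 for 5 to 10 kb. Classic targets had 0.91, against 0.43 for genes of 100 to 200 kb with a mean level of at least 5. The active zone had 0.88, against 0.52 for such genes over 200 kb. Chromatin genes (median span 88.1 kb) had 1.17, against 0.34 for such genes of 50 to 100 kb. Splicing genes had a median span of 19.3 kb and a median difference of 0.70. All genes of 10 to 20 kb had a median of -0.14. GABA receptor genes had a median span of 183.0 kb and a median difference of 0.22. That lay near the median of 0.18 for all genes of 100 to 200 kb, and below the 0.43 for those of mean level at least 5.

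**Figure D4:**
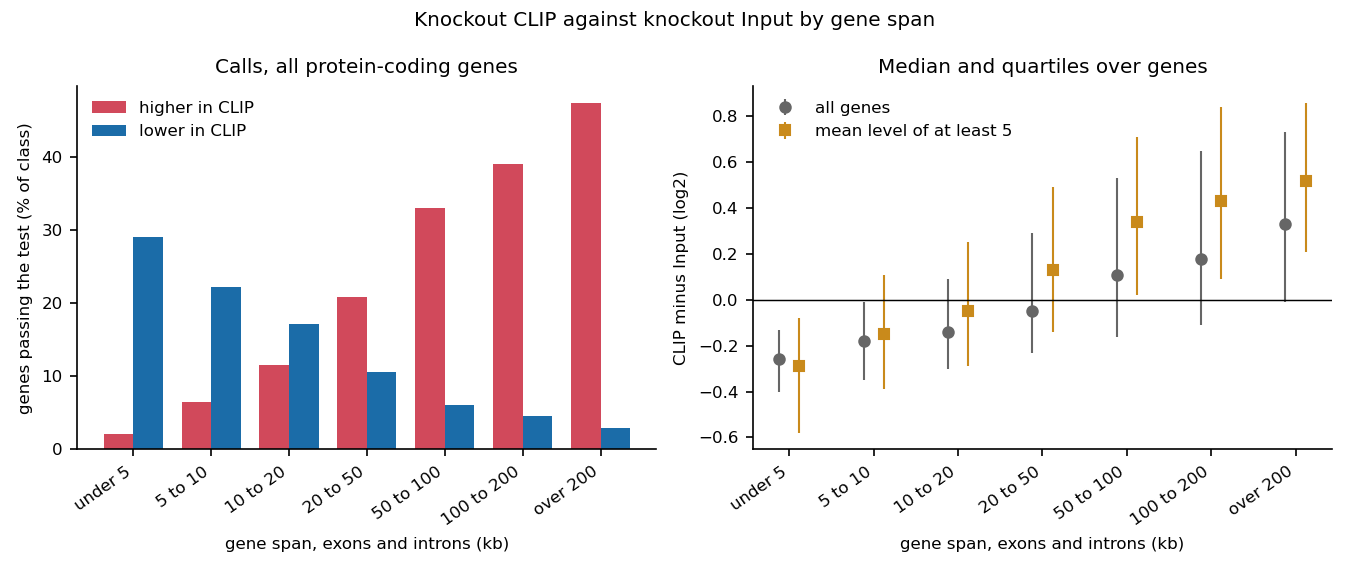
Left, share of protein-coding genes (%, vertical axis) higher (red) or lower (blue) in knockout CLIP by class of gene span in kb; right, median CLIP minus Input (log2) with bars from the lower to the upper quartile over genes, for all genes (circles) and those of mean level at least 5 (squares). The share of higher genes climbs from 2.12% to 47.4% as the share of lower genes drops from 29.1% to 2.90%.

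Annotated cellular components in the deposited table, described after their values were seen, were in part like the lists. Among 78 terms with at least 50 genes the lowest medians were those of the respiratory chain (-0.96), the ribosome (-0.61) and the ribonucleoprotein complex (-0.34). The highest were those of the postsynaptic density (0.41), where 38 of 76 genes were higher and 2 lower, and the growth cone (0.40), with 35 of 67 higher and 1 lower. Terms near in name to the lists were less extreme: for chromatin 22 of 57 genes were higher and 5 lower (median 0.14, against 1.17 for the list of remodellers), and for the spliceosomal complex 45 of 113 were higher and 23 lower (median 0.18, against 0.70 for the splicing list). For the cell surface 22 of 184 were higher and 24 lower (median -0.14). The terms overlap with each other and with the lists.

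Markers of both neuron types, and of astrocytes and cycling cells, were above the bottom of the scale in Input: a mean Input level under 5 was found for 0 of 15 excitatory, 0 of 15 inhibitory, 1 of 15 astrocyte and 3 of 15 cycling markers. It was found for 5 of 14 oligodendrocyte lineage, 9 of 14 microglia and 9 of 15 endothelial and meningeal markers. Excitatory neuron markers were higher in 8 of 15 genes and lower in 0 (median 0.38), with the kinase Camk2a at 0.87. Inhibitory neuron markers were mixed, with 4 higher and 3 lower of 15 (median 0.04, and -0.17 with quantile normalization): the transcription factor Dlx1 rose by 0.98 and the neuropeptide Npy fell by 0.80 (limma adjusted p = 0.000366). Astrocyte markers were lower in 4 of 15 and higher in 0 (median -0.25), led by Aldoc at -1.38 and the glutamate transporter Slc1a3 at -0.84. Oligodendrocyte lineage markers were lower in 4 of 14, microglia markers in 2 of 14 and endothelial and meningeal markers in 3 of 15, with 0 higher in each and medians of -0.20, -0.20 and -0.19. Over all genes 16.1% were lower and 16.7% higher, and features with a mean level under 5 had a median of -0.20. The microglia and endothelial counts of lower genes thus lay near the share of all genes. Of 15 cycling markers 1 rose, Mki67 with 0.99, and 3 fell, among them Vim with -0.73. The part of these markers in other results was not tested.

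Immediate early genes and KRAB zinc finger genes lay between. Of 27 immediate early genes 3 were higher and 3 lower (median -0.08), with Homer1 at 0.80 and Ier5 at -0.44. Of 37 zinc finger genes 13 were higher and 1 lower (median 0.23), from Zfp39 at 0.92 to Zfp189 at -0.70, and 13 had a mean Input level under 5.

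In wild-type neurons, where FMRP is present, the precipitate differed from Input over much the same features. Wild-type CLIP against wild-type Input, which shares no array with the knockout comparison, gave 4424 higher features (18.0%) and 4614 lower (18.8%), and the differences of both genotypes correlated at 0.913 over all features (a description). Of the features higher in knockout, 83.7% were also higher in wild type, and 77.0% the other way round; for lower features the shares were 70.0% and 62.2%. Only Tmem129 passed in opposite directions, at -0.47 in knockout and 0.48 in wild type, and its difference between genotypes did not pass (adjusted p = 0.217). Median differences in wild type were 1.14 for classic targets, 1.44 for chromatin genes, -1.10 for the respiratory chain and -1.52 for histones. Knockout CLIP arrays correlated with wild-type CLIP arrays at 0.972 to 0.993.

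The test of the difference itself, knockout enrichment minus wild-type enrichment over the 10 cultures, found 0 features higher and 2 lower (0.00815%) in limma. Before adjustment, 577 positive and 875 negative differences had a limma p below 0.05. Chance alone would bring about 5% of the 24551 features below that limit, so these counts single out no features. The first of the 2 lower features was Dgkk, the kappa form of diacylglycerol kinase, an enzyme that phosphorylates the lipid messenger diacylglycerol. Its knockout Input levels were 4.48, 4.37, 4.29, 4.65 and 4.18 and its knockout CLIP levels 4.64, 4.58, 4.46, 4.88 and 4.86, which overlap. The knockout difference was 0.29 (SE 0.12, adjusted p = 0.0887), whereas in wild type CLIP stood at 7.09 ± 0.49 and Input at 4.34 ± 0.19 (SD, n = 5), a difference of 2.75. Between genotypes this came to -2.46 (SE 0.24, adjusted p = 0.00137), and to an adjusted p of 0.052 without culture 4 of each genotype. With quantile normalization the knockout difference of Dgkk was 0.43 and passed (adjusted p = 0.0226).

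The other was 2610507B11Rik, which was also higher in the knockout precipitate than in knockout Input. Input levels of 7.30, 6.80, 7.48, 7.04 and 7.17 stood against CLIP levels of 8.44, 8.47, 8.51, 8.42 and 8.23, with no overlap and a difference of 1.26 (SE 0.13, limma adjusted p = 8.85e-05). In wild type the difference was 2.54, so that the genotypes differed by -1.28 (SE 0.17, adjusted p = 0.0325). This call was lost without culture 1, 3, 4 or 5 (adjusted p = 0.285, 0.537, 0.119 and 0.382), and with median centring (0.079) or a variance trend (0.0507).

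Classic FMRP targets had a median genotype difference of -0.27, against -0.03 for all genes, and 0 of the 99 passed in limma (2 of all genes did, 0.00941%). Chromatin genes had -0.19 and cytoskeletal linkers -0.31, while splicing genes had 0.30 and histones 0.18, again with 0 genes passing in each. In simulated data this test found 14% of added log2 changes of 0.5, 66% of 1, 60% of -1 and 100% of 2. Noise was drawn independently for each feature there, without the effects that features of 1 array or culture share. With that limit, the test could not decide whether single genes hold shifts as small as these.

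**Figure D5:**
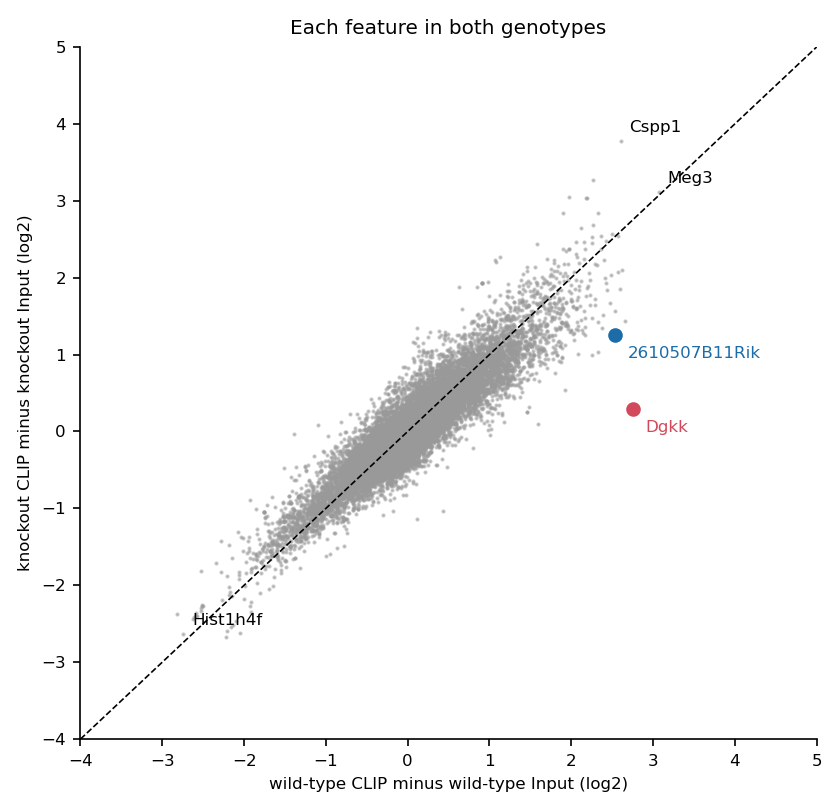
Each of the 24551 features by its CLIP minus Input difference in wild type (log2, horizontal axis) and in knockout (log2, vertical axis), with the dashed line at equal values. Points follow the line (r = 0.913), Dgkk lies far below it at 2.75 and 0.29, and 2610507B11Rik lies below it at 2.54 and 1.26.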

How the data were processed

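The authors' deposited table holds log2 values made by robust multi-array averaging (RMA) in Affymetrix Expression Console 1.1, per the submitters' processing notes. No source used here gives the genome build. Its 24558 lines include 7 summary lines, which were dropped. Same-numbered CLIP and Input arrays of a genotype were paired as 1 culture, because the study's design counts 10 cultures for 20 arrays and its deposited ratios match that pairing (largest deviation 0). Residuals of the knockout pairs correlated at 0.221, -0.128, 0.224, 0.455 and 0.0688. An exact test over 5 pairs cannot pass 0.05, so limma 3.58.1 in R 4.3.3 was used (lmFit, eBayes, two-sided, Benjamini-Hochberg), with culture as a block. The genotype comparison used the 10 within-culture differences. The fits were tested on simulated data. Symbols and gene spans came from RefSeq (GRCm38.p6), which matched 23774 features. Python 3.11.15, pandas 2.3.3 and matplotlib 3.10.9 made tables and figures.

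Members and lists were chosen with earlier results of these data known. The text names Fmr1, Fxr1, Fxr2 and Dgkk; in each direction the 15 features that differ most with an adjusted p under 0.05, all 5 cultures alike, a mean of at least 5 and 1 symbol; those that passed between genotypes; and per list up to 4 members of lowest p and up to 2 against its direction. Some genes that this rule names are not reported here. Alternatives were no block, quantile normalization, median centring, a mean of at least 5, a variance trend, all 20 arrays, 1 row per gene and leaving out each culture number.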

Additional observations from a re-analysis of the deposited data

Results flagged for a closer look

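The genotype comparison gave a pair of results. Enrichment of Dgkk in knockout minus that in wild type was -2.46 (limma adjusted p = 0.00137), and that of 2610507B11Rik was -1.28 (adjusted p = 0.0325).

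Of 193 sets of 5 culture values, 7 had a culture far from the others by Dixon's criterion (0.71 for 5 values), and chance alone flags about 5% of sets. Dgkk was 0.67 in culture 5 against 0.16 to 0.23 in the other cultures. Hist1h3i was -2.83 in culture 5 against -2.29 to -2.08. S100b, an astrocyte marker, was 0.40 in culture 4 against -1.23 to -0.89. Mki67, a cycling marker, was 0.49 in culture 3 against 1.05 to 1.25. In culture 1, the inhibitory marker Calb2 was -1.10 against -0.49 to -0.29 and the noncoding 6330403K07Rik -1.12 against -0.43 to -0.19. Mrps5 was 1.12 in culture 2 against 0.62 to 0.70. The cause was not tested in any of them.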

How the results depend on the processing

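Precision is set by 5 cultures per group and, near the bottom of the scale, by compressed differences. In the knockout comparison counts stayed within 1.5 times (4073 higher and 4095 lower as reported) except for lower features with a mean of at least 5 (2454, where 14216 features were tested) and without replicate 5 (2321). Leaving out 1 culture gave 3178 to 4181 higher and 2321 to 4175 lower, and at least 2-fold 878 to 1244 higher and 557 to 779 lower; with 1 row per gene 401 were lower by 2-fold instead of 665. Without the replicate block 3692 were higher and 3782 lower, and this changed no count of that comparison by over 1.5 times. Between genotypes 2 features were lower as reported, 5 without the replicate block (Dgkk, 2610507B11Rik, Fmr1, Unc13c and Ppfia3, the last pair outside the naming rule), 3 with quantile normalization (with Spnb3, also outside it), 1 with median centring, 1 with a variance trend, and 0 to 2 without 1 culture number, the 0 being without replicate 4. Features higher stayed at 0 in each of these. Quantile normalization moved the median of all genes from -0.13 to -0.02, the active zone from 0.88 to 0.73 and inhibitory markers from 0.04 to -0.17, and the cytoplasmic ribosomal list as given above. Of 403 alternative values of named features 387 kept direction and side of the threshold, 15 lost the call, 1 gained it and 0 reversed; of 1384 for list members 1329 kept both, 55 lost the call and 0 reversed; and of 320 list medians 315 moved by less than 1 SD of the culture medians. The causes were not tested.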
